A study of Mus musculus with 10 samples.

Results

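The genes described are 9 that make peptides for, load or complete the major histocompatibility complex (MHC) class I molecule: Psmb8, Psmb9, Psmb10, Psme1, Psme2, Tap1, Tap2, Tapbp and B2m. They were chosen by their place in this pathway, and 8 of them are among the 18193 genes measured in the series. Where a gene had several probe sets, the one brightest on average over the 10 arrays stood for it, and the rest served as a check. For 8 of the 9 a probe set of their own was found. Psme2 had only a probe set that it shares with the near-identical Psme2b, so its values are given as uncertain and are left out of the counts of members.

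The cells were bone marrow cells of C57BL/6 mice aged 5 to 6 weeks, grown with interleukin 3, interleukin 6 and stem cell factor and transduced with the retroviral vector MigR1, which also encodes green fluorescent protein. The vector was empty (GFP, 3 arrays), carried AML1/ETO, a fusion protein of acute myeloid leukaemia (3 arrays), or carried the same fusion with the W692A substitution (4 arrays). AML1/ETO joins the DNA-binding part of RUNX1 to most of the corepressor ETO. All groups share the mouse strain, the culture, the vector with its marker and 2 rounds of transduction, and live cells negative for lineage markers and positive for Sca1, cKit and green fluorescence were sorted 48 hours after the second round. The labels describe the samples of a group as independent transductions. The sources used here do not say whether separate mice were used, so p-values measure the spread between these samples, part of which may be technical.

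Nearly every nucleated cell displays peptides from its own proteins on MHC class I molecules, each a heavy chain paired with the invariant light chain beta-2 microglobulin. The peptides are cut by the proteasome, a barrel whose catalytic subunits Psmb5, Psmb6 and Psmb7 are replaced by Psmb8, Psmb9 and Psmb10 in the immunoproteasome, the form that is prominent in blood cells and under interferon. The PA28 cap, built from Psme1 and Psme2, opens the barrel. The transporter of Tap1 and Tap2 carries the peptides into the endoplasmic reticulum, where tapasin (Tapbp) holds an empty class I molecule beside it until a peptide is bound. Interferons raise the transcription of all these genes in many cell types.

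The values are log2 intensities, 1 per gene and array, so a difference of 1 is a doubling. A background bound of 2.04 was set by the brightest value of 27 bacterial control probe sets (dap, lys, phe, thr and trpn), and a value under it was not well above background. Arrays of a group correlated at 0.982 to 0.992 over all genes and arrays of different groups at 0.887 to 0.962. Runx1 lay between 5.81 and 5.90 with GFP, 6.61 and 6.89 with AML1/ETO and 6.67 and 7.09 with W692A, and Runx1t1, the gene of ETO, between 0.42 and 1.03, 2.10 and 3.13, and 0.53 and 0.86. The Runx1t1 probe set thus exceeded the bound on the AML1/ETO arrays and not on the arrays labelled W692A, whose group is taken from the label throughout. Kit, the gene of the sorted surface protein cKit, was between 0.95 and 1.97 on all arrays, under the bound. The Gapdh 3′ minus 5′ control difference grows as RNA is degraded or copied short. It was 4.83 to 4.99 with GFP, 4.01 to 5.04 with AML1/ETO and 3.81 to 4.17 with W692A. No W692A array overlapped a GFP array in it, so the construct and this difference cannot be told apart between those groups. With it as a covariate (the Gapdh covariate below), the standard errors of the members between those groups grew. A call that ended with it is therefore not assigned to RNA quality.

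With AML1/ETO 3 of the 4 loading genes were higher than with GFP and no immunoproteasome gene passed the test. B2m, Tap1 and Tapbp rose 1.53-fold to 2.21-fold, and every AML1/ETO array lay above every GFP array for each of them, as was so for 18.1% of all genes. Psmb8, Psmb9, Psmb10 and Psme1 differed by -0.20 to 0.13 on the log2 scale and did not pass the test. In all, 3 of the 8 measured members rose and 0 fell at a limma adjusted p under 0.05, and at an unadjusted p under 0.05 the counts were also 3 and 0. Over all 18193 genes 12.9% rose and 15.8% fell, or 28.6% in either direction, and of the 8820 genes above the bound in at least 1 group mean, 22.6% rose and 29.8% fell. The median difference of the members was 0.21, against -0.02 for all genes.

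With W692A no loading gene passed the test against GFP, with differences of -0.16 for Tap1, 0.03 for B2m and 0.46 for Tapbp. Psme1 was the 1 member of 8 called, and it fell 1.41-fold, while 0 rose (0 also at an unadjusted p under 0.05, by limma). Over all genes 5.45% rose and 9.07% fell, or 14.5% in either direction, and of genes above the bound 10.3% rose and 17.1% fell. All W692A arrays lay below all GFP arrays for Psme1, as was so for 12.5% of all genes. Set directly against AML1/ETO, the arrays labelled W692A had 3 of 8 members lower, the same B2m, Tap1 and Tapbp that rose with AML1/ETO, and 0 higher (0 higher and 4 lower at an unadjusted p under 0.05). Over all genes 9.61% were higher and 11.1% lower in that comparison, or 20.7% in either direction, and of genes above the bound 18.9% were higher and 20.2% lower. The W692A arrays all lay below the AML1/ETO arrays for B2m, Tap1 and Psme1, as was so for 13.5% of all genes. The 3 comparisons share groups pairwise, so their results are not independent of each other.

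**Figure D1:**
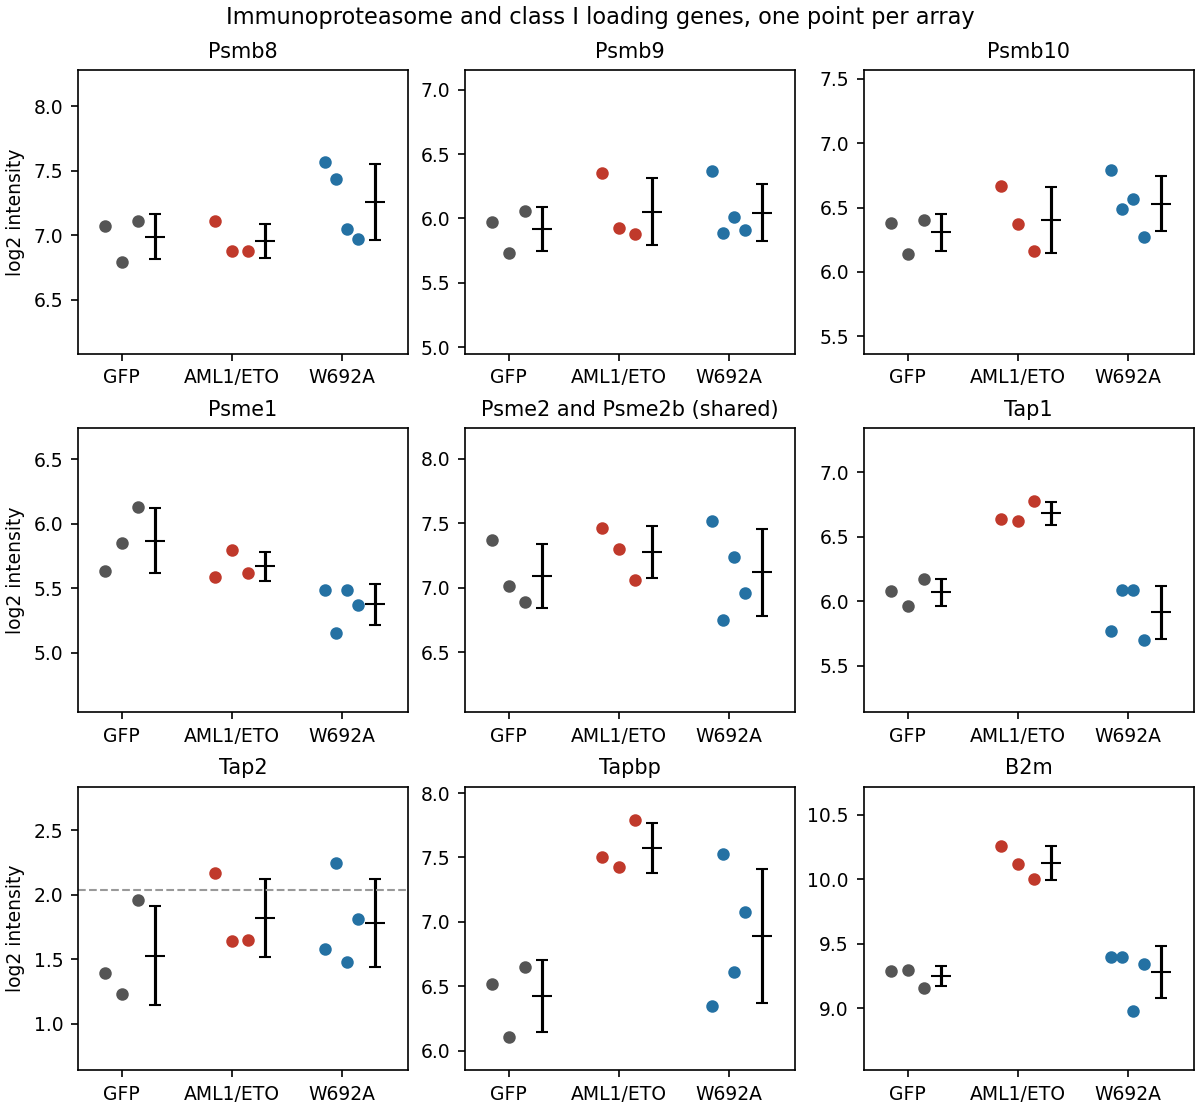
Log2 intensity (vertical axis) of each member on each array, by group along the horizontal axis; 1 point is 1 array, and the cross and bar are the group mean ± SD (GFP n = 3, AML1/ETO n = 3, W692A n = 4). The dashed line in the Tap2 panel is the background bound of 2.04, and all panels span the same range of log2 units. The AML1/ETO points of Tap1 and B2m lie above all other points, while the groups overlap for Psmb8, Psmb9 and Psmb10.

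B2m, the light chain without which most class I heavy chains do not reach the cell surface, gave 9.29, 9.30 and 9.16 with GFP, 10.26, 10.12 and 10.00 with AML1/ETO, and 9.40, 9.40, 8.98 and 9.34 with W692A. The 3 AML1/ETO arrays stood above all 7 others, and the W692A arrays fell on both sides of the GFP arrays. B2m rose 1.84-fold with AML1/ETO, a log2 difference of 0.88 with a standard error (SE) of 0.135, after ± below (limma adjusted p = 0.000125). It was 1.80-fold lower with W692A than with AML1/ETO (log2 difference -0.85 ± 0.126, limma adjusted p = 0.000186). Between W692A and GFP it differed by 0.03, with a 95% interval from -0.24 to 0.30, whose upper end lies under the 0.88 of AML1/ETO. A second B2m probe set, not used for these values, gave differences of 0.89, 0.01 and -0.88 in the same comparisons, with limma adjusted p of 0.000731, 0.986 and 0.000805 over all probe sets.

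The B2m promoter is shown because it carries both an interferon-type and an NF-kappaB-type match close to the start of the gene that rose. The 150 bases before the annotated start, from RefSeq on build GRCm38.p6 at chr2:122147537-122147686, plus strand, read as follows, with the matches in capitals.
B2m: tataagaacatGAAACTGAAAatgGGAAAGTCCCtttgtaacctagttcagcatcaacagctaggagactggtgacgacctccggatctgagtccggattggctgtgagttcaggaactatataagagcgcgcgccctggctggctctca
The first run of capitals is a match to GAAA, any 2 bases and GAAA again, the core of the interferon-stimulated response element (ISRE), at -139 to -130 from the start. The second matches the NF-kappaB consensus on the opposite strand, at -126 to -117.

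Tap1, which forms the peptide pump together with Tap2, gave 6.08, 5.96 and 6.17 with GFP, 6.64, 6.62 and 6.78 with AML1/ETO, and 5.77, 6.09, 6.09 and 5.70 with W692A. The AML1/ETO arrays did not overlap with any other array. Tap1 rose 1.53-fold with AML1/ETO (0.61 ± 0.134, limma adjusted p = 0.00243) and was 1.70-fold lower with W692A than with AML1/ETO (-0.77 ± 0.126, limma adjusted p = 0.000415). Its difference of -0.16 between W692A and GFP did not pass (95% interval -0.42 to 0.11, limma adjusted p = 0.505). The 3 other Tap1 probe sets were between 0.11 and 0.77 on all arrays, under the bound, and none passed in any comparison. With the mean of the 4 probe sets in place of the brightest, both Tap1 calls ended (0.16, limma adjusted p = 0.215, and -0.18, limma adjusted p = 0.175).

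Tap2, the other chain of the pump, was dim on this array. It gave 1.39, 1.23 and 1.96 with GFP, 2.17, 1.64 and 1.65 with AML1/ETO, and 1.58, 2.25, 1.48 and 1.81 with W692A. Only AML1/ETO replicate 1 and W692A replicate 2 exceeded the bound of 2.04. Its differences of 0.29, 0.25 and -0.04 did not pass, and no fold is given because no group mean was above background.

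Tapbp encodes tapasin, which bridges the pump and the empty class I molecule. It gave 6.52, 6.11 and 6.65 with GFP, 7.50, 7.43 and 7.79 with AML1/ETO, and 6.35, 7.53, 6.61 and 7.08 with W692A. The AML1/ETO arrays lay above all GFP arrays, while W692A replicate 2 reached into the AML1/ETO range and W692A replicates 1 and 3 lay within the GFP range. Its rise with AML1/ETO was 2.21-fold (1.15 ± 0.241, limma adjusted p = 0.0018), the largest difference among the 8 measured members in that comparison. Between W692A and GFP it differed by 0.46 ± 0.226 and did not pass (95% interval -0.02 to 0.95, limma adjusted p = 0.214). It was 1.60-fold lower with W692A than with AML1/ETO (-0.68 ± 0.226, limma adjusted p = 0.0439). That last call ended under 7 of the 13 other settings and on leaving out any 1 of 7 of the 10 arrays, with limma adjusted p up to 0.22. The other Tapbp probe set was between 1.14 and 1.76 on all arrays, under the bound, and differed by 0.35, 0.02 and -0.34 without passing.

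The Tapbp promoter is shown because it holds the letters TGTGGT, the core bound by RUNX1, the protein whose DNA-binding part AML1/ETO keeps. The 150 bases before the start at chr17:33919328-33919477, plus strand of GRCm38.p6, read as follows, with that match, at -92 to -87, in capitals.
Tapbp: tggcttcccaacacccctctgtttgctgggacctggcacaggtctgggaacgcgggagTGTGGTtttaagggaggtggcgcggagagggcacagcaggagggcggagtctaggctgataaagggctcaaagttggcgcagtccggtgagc
No ISRE, GAS or NF-kappaB match was found in its window.

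None of the 3 catalytic subunits of the immunoproteasome passed the test in any comparison. Psmb8 (LMP7, the chymotrypsin-like subunit that replaces Psmb5) gave 7.07, 6.79 and 7.11 with GFP, 7.11, 6.88 and 6.88 with AML1/ETO, and 7.57, 7.44, 7.05 and 6.97 with W692A. Psmb9 (LMP2, which replaces Psmb6) gave 5.97, 5.73 and 6.06, then 6.35, 5.93 and 5.88, then 6.37, 5.89, 6.01 and 5.91, in the same order of groups. Psmb10 (MECL-1, which replaces Psmb7) gave 6.38, 6.14 and 6.40, then 6.67, 6.37 and 6.16, then 6.79, 6.49, 6.57 and 6.27. The groups overlapped for all 3 genes in every comparison.

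Between AML1/ETO and GFP the differences were -0.03 for Psmb8 (95% interval -0.38 to 0.32), 0.13 for Psmb9 (-0.21 to 0.48) and 0.09 for Psmb10 (-0.24 to 0.43). The upper ends of these intervals were 1.25-fold, 1.39-fold and 1.34-fold. The 95% intervals of B2m (1.51-fold to 2.25-fold) and Tapbp (1.55-fold to 3.16-fold) lay above them. That of Tap1 (0.33 to 0.90 on the log2 scale) overlapped those of Psmb9 and Psmb10. The differences of B2m and Tapbp from the subunits were not tested. Between W692A and GFP the differences were 0.27, 0.12 and 0.22, with intervals of -0.06 to 0.60, -0.20 to 0.44 and -0.09 to 0.53. Against AML1/ETO the W692A arrays differed by 0.30, -0.01 and 0.13. None passed, with limma adjusted p from 0.208 to 0.975. A second Psmb8 probe set, at 2.81 to 3.05, differed by -0.01, 0.11 and 0.12, also without passing.

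Within groups, arrays that were high for one immune subunit tended to be high for the others. About the group means, the correlation over the 10 arrays was 0.916 for Psmb9 with Psmb10, 0.761 for Psmb8 with Psmb10 and 0.709 for Psmb8 with Psmb9. Replicate 1 was the highest array of its group for both Psmb9 and Psmb10 with AML1/ETO and with W692A. The constitutive subunits shared this spread with the immune subunits, from 0.554 for Psmb8 with Psmb6 to 0.86 for Psmb9 with Psmb5. B2m reached 0.825 with Psmb7, but 0.272 with Psmb9 and 0.223 with Psmb10. Tap1 did not share the spread, at -0.16 with Psmb9 and 0.061 with Psmb10. These correlations describe 10 arrays that share one normalization and carry no test.

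Psmb5, Psmb6 and Psmb7, the subunits that the immunoproteasome replaces, were not called in any comparison (unadjusted p under 0.05 for 0 of 3 with AML1/ETO, and for 1 of 3, higher, with W692A against GFP and against AML1/ETO). The log2 ratio of each immune subunit to its constitutive counterpart on the same array, which cancels what both share, changed by 0.02 for Psmb8 over Psmb5, 0.15 for Psmb9 over Psmb6 and -0.17 for Psmb10 over Psmb7 between AML1/ETO and GFP. Between W692A and GFP the ratios changed by 0.07, -0.26 and -0.24. Of the 12 ratio tests made, including the 3 for Tap1 over Psmb9, none was below 0.343 after adjustment (exact two-sided permutation tests, Benjamini-Hochberg over the 12). The smallest p of such an exact test is 0.1 with 3 arrays against 3 and 0.0286 with 3 against 4.

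Psmb9 and Tap1 are neighbours that start back to back, 225 bases apart, on chromosome 17, and the whole stretch between them is shown because one of the pair rose and the other was not called. It lies at chr17:34187331-34187555 of GRCm38.p6 (RefSeq) and is written on the plus strand, so that Psmb9 starts leftward of the first base and Tap1 rightward of the last.
Psmb9 to Tap1: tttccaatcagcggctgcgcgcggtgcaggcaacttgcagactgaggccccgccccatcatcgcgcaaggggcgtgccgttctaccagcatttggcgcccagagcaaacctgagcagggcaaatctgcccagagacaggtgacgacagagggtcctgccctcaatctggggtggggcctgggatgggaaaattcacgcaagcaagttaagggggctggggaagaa
None of the 4 motifs searched has a match in it, so it has no capitals, which says only that these letters are not in this window. On the same array, the log2 ratio of Tap1 to Psmb9 changed by 0.48 ± 0.182 (SE) from GFP to AML1/ETO, where all 3 arrays against 3 gave the smallest p possible (exact two-sided permutation p = 0.1, adjusted 0.4). It changed by -0.76 ± 0.253 from AML1/ETO to W692A (exact p = 0.0571, adjusted 0.343) and by -0.28 ± 0.184 from GFP to W692A (exact p = 0.257, adjusted 0.617). With 3 arrays against 3 the exact test cannot fall under 0.05, so it cannot decide the comparison of AML1/ETO with GFP. The other 2 comparisons, where it can reach 0.0286 before adjustment, did not pass.

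The Psmb8 promoter is shown as that of an immune subunit with an interferon-type match that was not called. Its 150 bases before the start at chr17:34198045-34198194, plus strand, hold a match to TTCNNNGAA, the gamma-activated site (GAS), at -97 to -89.
Psmb8: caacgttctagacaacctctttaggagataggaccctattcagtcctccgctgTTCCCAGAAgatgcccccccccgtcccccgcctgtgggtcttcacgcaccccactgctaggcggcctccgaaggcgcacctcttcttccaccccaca

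Of the PA28 subunits, neither passed the test with AML1/ETO, and Psme1 fell with W692A. Psme1 (PA28 alpha) gave 5.63, 5.85 and 6.13 with GFP, 5.59, 5.80 and 5.62 with AML1/ETO, and 5.49, 5.15, 5.49 and 5.37 with W692A. All W692A arrays lay below all others, though AML1/ETO replicate 1 was near the highest of them. Psme1 fell 1.41-fold from GFP to W692A (log2 difference -0.49 ± 0.135, limma adjusted p = 0.023), and its differences of -0.20 (AML1/ETO against GFP) and -0.29 (W692A against AML1/ETO) did not pass. The call ended without GFP replicate 2, GFP replicate 3, W692A replicate 2 or W692A replicate 4 (limma adjusted p = 0.0597, 0.11, 0.0656 and 0.0519), and with the Gapdh difference as a covariate (-0.58, limma adjusted p = 0.295).

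The probe set shared by Psme2 (PA28 beta) and Psme2b gave 7.37, 7.01 and 6.89 with GFP, 7.46, 7.30 and 7.06 with AML1/ETO, and 7.52, 6.75, 7.24 and 6.96 with W692A. The groups overlapped. Its differences of 0.19, 0.02 and -0.16 did not pass in a fit of every probe set (limma adjusted p = 0.627, 0.965 and 0.686).

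**Figure D2:**
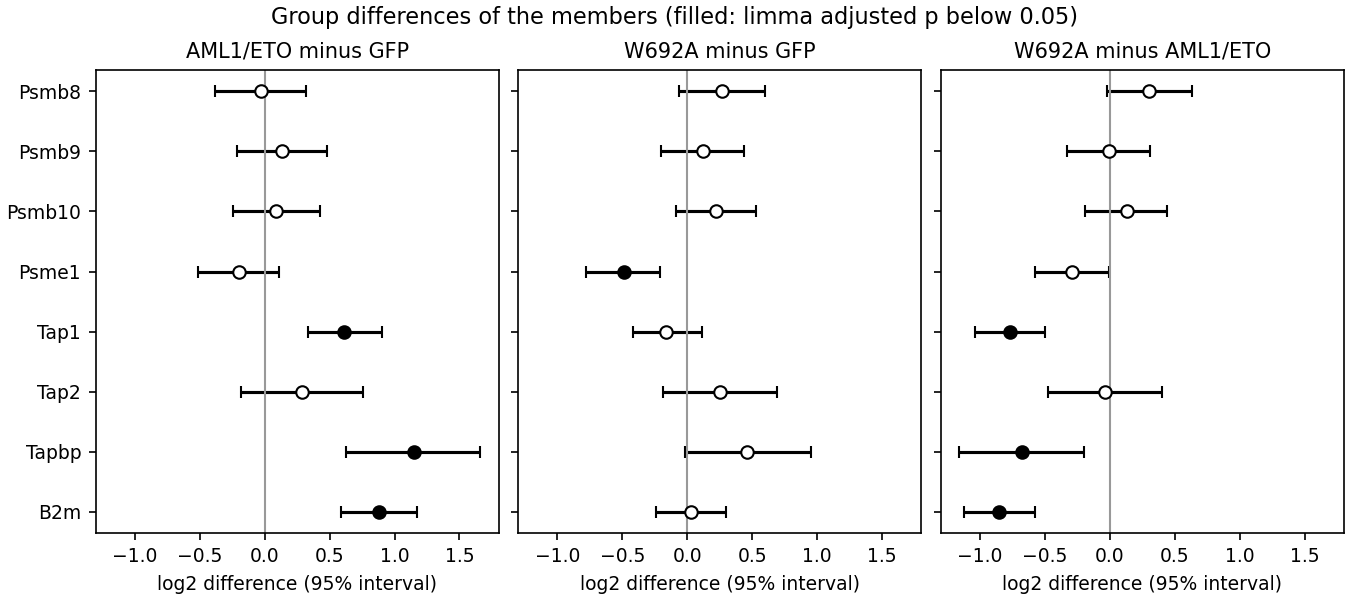
Log2 difference between groups (horizontal axis) for each of the 8 members with a probe set of their own, in the 3 comparisons; bars are 95% intervals from limma, and filled points have an adjusted p under 0.05. B2m, Tap1 and Tapbp are filled on the right with AML1/ETO against GFP and on the left with W692A against AML1/ETO, and only Psme1 is filled in W692A against GFP.

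Windows of 300 bases, from 250 before to 50 after the annotated start, were found in RefSeq for 8 of the 9 genes, with 2 for Psme2. They were searched on both strands for GAAA followed after any 2 bases by GAAA (ISRE), TTCNNNGAA (GAS), TGTGGT (RUNX) and the NF-kappaB consensus. An ISRE match was found in B2m and, after the start, in Psme1 (10 to 19), a GAS match in Psmb8, a RUNX match in Tapbp and Psmb10 (-13 to -8), and an NF-kappaB match in B2m. Psmb9, Tap1 and Psme2 had none. Over 32851 such windows, 3.44% held the ISRE letters, 8.30% the GAS letters, 16.8% the RUNX letters and 4.51% the NF-kappaB letters. Of the 3 genes that rose with AML1/ETO, then, 1 had ISRE and NF-kappaB matches, 1 a RUNX match and 1 none, and a match is a description of the sequence only.

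**Figure D3:**
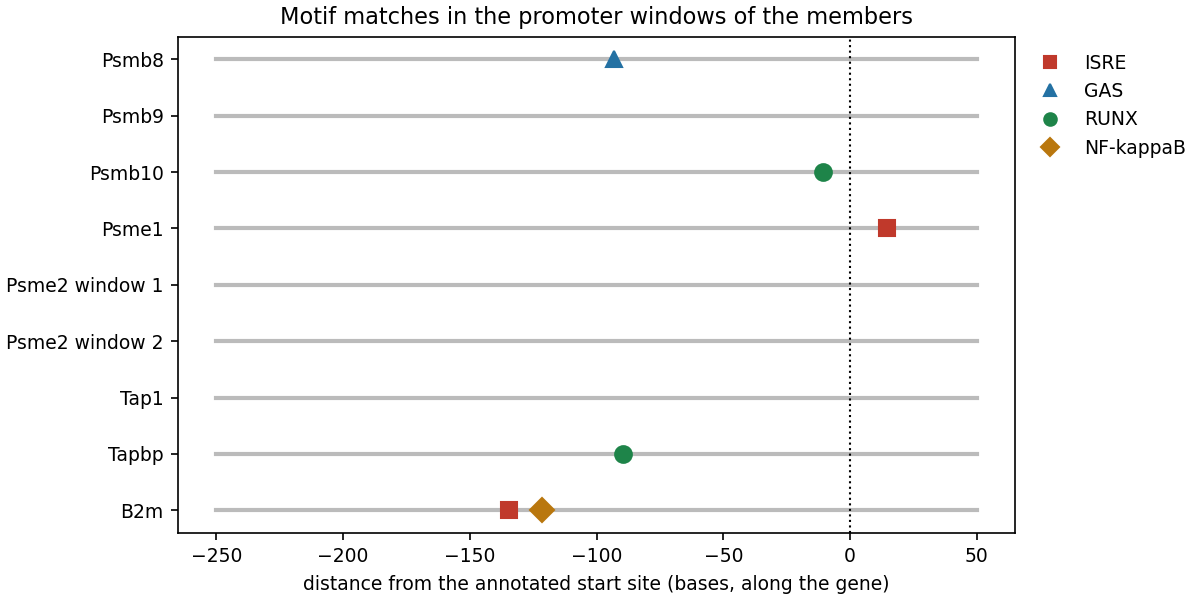
Position of each motif match in bases from the annotated start (horizontal axis, 0 at the dotted line) in the promoter windows of the members (rows; grey bars show the 300 bases searched). Matches are few, and B2m is the only gene with 2.

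The proteins that class I loading depends on were followed through lists of genes. Of 9 measured heavy chain genes, 4 rose with AML1/ETO and 0 fell, 0 were called with W692A against GFP (0 also at an unadjusted p under 0.05), and 4 were lower with W692A than with AML1/ETO. The median difference was 0.26 with AML1/ETO and 0.00 with W692A. Of the 9 genes, 6 were above the bound in a group. Among all genes above it, 22.6% rose with AML1/ETO and 20.2% were lower with W692A than with AML1/ETO. Over all genes these shares were 12.9% and 11.1%. H2-D1, a classical heavy chain, gave 5.73, 5.48 and 5.69 with GFP, 6.57, 6.22 and 6.47 with AML1/ETO, and 5.93, 5.47, 5.41 and 5.40 with W692A, and rose 1.72-fold with AML1/ETO (0.78 ± 0.154, limma adjusted p = 0.00106). H2-T24, a nonclassical class I gene, rose at least 1.07-fold (limma adjusted p = 0.000137), a lower limit computed with values under the bound set to it. The other 2 that rose, named after their values were seen, were the classical H2-K1 (0.47, limma adjusted p = 0.0345) and H2-M3 (0.52, limma adjusted p = 0.00262), which presents formylated peptides. The H2-K1 call ended without GFP replicate 1 or 2 or AML1/ETO replicate 1 or 3. Class I genes are near copies of each other and the H2-K1 and H2-D1 probe sets can share signal between them. Of the other probe sets, 1 of 3 for H2-K1 and 1 of 8 for H2-D1 also rose.

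In the endoplasmic reticulum, 4 of 10 genes of loading, folding and peptide trimming rose with AML1/ETO and 1 fell, with a median of 0.37. Of all genes above the bound 22.6% rose and 29.8% fell in that comparison. With the spike-in level as a covariate 1 of the 10 rose. Ganab, a subunit of the glucosidase that trims the sugars of new glycoproteins, rose 1.52-fold (0.60, limma adjusted p = 0.0109), and Uggt1, which returns misfolded glycoproteins to the folding cycle, rose 1.34-fold. The channel subunits Sec61a1 (0.41) and Sec61b (0.35), named after their values were seen, made up the other 2. Each of these 4 calls ended on leaving out 1 array or more: Ganab without GFP replicate 2, Uggt1 and Sec61a1 without GFP replicate 1, GFP replicate 2 or AML1/ETO replicate 3, and Sec61b without GFP replicate 1, W692A replicate 4 or any AML1/ETO array. Erap1, the aminopeptidase that trims peptides to length for class I, fell 1.79-fold with AML1/ETO (-0.84 ± 0.22, limma adjusted p = 0.00874) and 1.86-fold with W692A (-0.90 ± 0.206, limma adjusted p = 0.00817). Its arrays were 4.64, 4.43 and 4.12 with GFP, 3.55, 3.23 and 3.91 with AML1/ETO, and 4.00, 3.33, 3.08 and 3.58 with W692A, with no overlap between GFP and either construct. Both Erap1 calls ended with the Gapdh covariate, with the mean of its probe sets and without GFP replicate 1, and the AML1/ETO call also without AML1/ETO replicate 2. Pdia3 and Calr, the oxidoreductase and lectin that sit beside tapasin in the loading complex, did not pass with AML1/ETO (0.46 and 0.17) and were lower with W692A than with AML1/ETO by -0.62 and -0.58 on the log2 scale (limma adjusted p = 0.0154 and 0.00622). They were the 2 genes of the list called in that comparison, and the Pdia3 call ended with the Gapdh or spike-in covariate and without AML1/ETO replicate 3 or W692A replicate 4.

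Of 5 measured peptidases that destroy or shorten peptides in the cytosol, 3 fell with AML1/ETO and 1 rose, and with the spike-in covariate 1 fell and 0 rose. All 5 were above the bound, where 29.8% of genes fell and 22.6% rose with AML1/ETO. The share of peptidases that rose thus lay near that of genes at large. Thop1, which degrades proteasome products, fell 2.05-fold (-1.04, limma adjusted p = 0.0124), and Lap3, a leucine aminopeptidase, fell 1.78-fold (-0.83, limma adjusted p = 0.000166). Npepps, the puromycin-sensitive aminopeptidase, rose 1.40-fold (0.49, limma adjusted p = 0.0308). The Thop1 call ended without GFP replicate 2, and the Npepps call without AML1/ETO replicate 1, GFP replicate 1 or GFP replicate 2 and with the Gapdh covariate. With W692A against GFP only Lap3 was called, falling 1.44-fold (limma adjusted p = 0.00886), and with the Gapdh covariate that call ended (-0.20).

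The rest of the proteasome gave 0 rises with AML1/ETO. Of 11 other subunits of the 20S core 0 were called (0 also at an unadjusted p under 0.05, by limma), with a median of 0.00. Of 17 subunits of the 19S cap, which unfolds ubiquitinated proteins, 6 fell and 0 rose (9 and 0 at an unadjusted p under 0.05), with a median of -0.30. All 17 were above the bound, and of all genes above it 29.8% fell, so the share of the cap that fell lay near that of genes at large. The scaffold subunit Psmd2 fell 1.72-fold (-0.78, limma adjusted p = 0.000424) and the ATPase subunit Psmc3 1.55-fold (-0.63, limma adjusted p = 0.00489). With the Gapdh difference as a covariate the count of falls was 2 in place of 6.

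Of 10 other activators and assembly factors, 7 fell with AML1/ETO and 0 rose (7 and 1 at an unadjusted p under 0.05), with a median of -0.64. All 10 were above the bound, where 29.8% of genes fell with AML1/ETO. Psmg1, a chaperone that starts the assembly of the 20S ring, gave 7.36, 7.32 and 7.43 with GFP, 5.95, 6.04 and 6.01 with AML1/ETO, and 7.11, 6.96, 6.95 and 6.82 with W692A, so the 3 groups did not overlap. It fell 2.58-fold with AML1/ETO (-1.37 ± 0.113, limma adjusted p = 3.01e-07) and 1.33-fold with W692A (limma adjusted p = 0.0167), a call that ended without GFP replicate 3 or W692A replicate 4. Psmg4, another assembly chaperone, fell 1.85-fold with AML1/ETO (limma adjusted p = 0.000314). Pomp, the maturation factor that favours immunoproteasome assembly, named after its values were seen, differed by 0.34 and did not pass (limma adjusted p = 0.12).

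Among genes above the bound, 10.3% rose and 17.1% fell with W692A against GFP. In that comparison 1 of 11 core subunits rose and 0 fell. Of 17 cap subunits 0 rose and 1 fell, and of 10 activators and assembly factors 0 rose and 2 fell. The called genes were Psma7 (1.54-fold higher), Psmd2 (1.65-fold lower), Psme4 (1.44-fold lower) and Psmg1, and with the Gapdh difference as a covariate all 4 calls ended, leaving 0 in each list. Against AML1/ETO the W692A arrays had 3, 7 and 6 genes of these lists higher and 0 lower, led by Psmg1 (1.95-fold), Psmg2 (1.71-fold) and Psmc3 (1.61-fold). Of genes above the bound, 18.9% were higher in that comparison. With the Gapdh covariate the first 2 of these counts were 0 and 3.

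**Figure D4:**
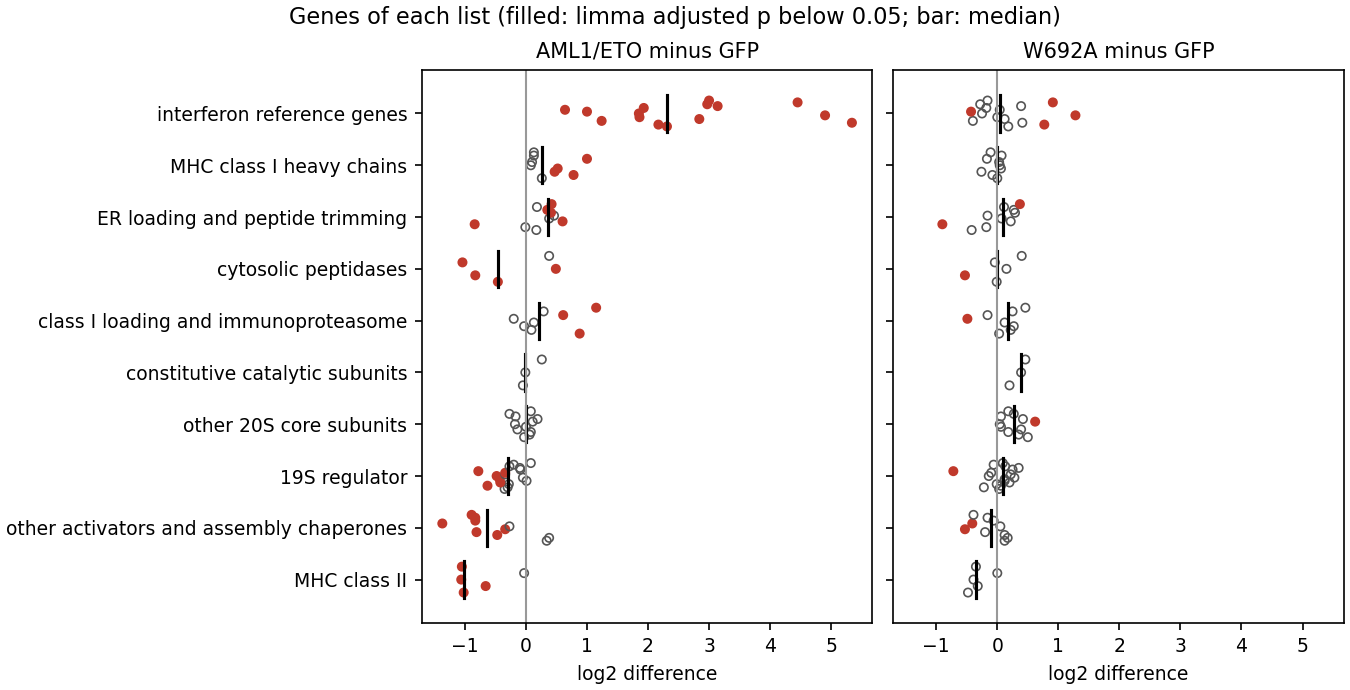
Log2 difference (horizontal axis) of each measured gene of 10 lists (rows) for AML1/ETO minus GFP and W692A minus GFP; filled points have a limma adjusted p under 0.05 and the vertical bar is the median of the list. With AML1/ETO the medians of the proteasome cap and of the assembly factors lie left of 0 (-0.30 and -0.64) and all interferon reference genes lie to the right, while the members and the class I heavy chains spread from about 0 to the right.

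Genes commonly induced by interferon give a scale for these values. All 15 measured reference genes rose with AML1/ETO, by 0.64 to 5.34 with a median of 2.31, so the rises of B2m (0.88) and Tapbp (1.15) lay below that median and the rise of Tap1 (0.61) below the whole range. With W692A 3 of 15 rose, 1 fell and the median was 0.04. Among genes above the bound, as all 15 were, 22.6% rose with AML1/ETO and 10.3% with W692A. With W692A the antiviral enzyme Rsad2 rose 1.88-fold and the GTPase Iigp1 at least 1.85-fold, and with the Gapdh covariate 1 of 15 rose, the Rsad2 call having ended. The list was known from earlier results to rise with AML1/ETO and is no independent evidence. Of 9 measured interferon genes none was above the bound in any group (highest group mean 0.92), and 0 were called in any comparison (1 of 9, higher with W692A against GFP, at an unadjusted p under 0.05).

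Among 17 measured transcriptional regulators of class I and interferon genes, 5 rose and 5 fell with AML1/ETO. Of all genes above the bound, as 15 of the 17 were, 22.6% rose and 29.8% fell. Both shares of the regulators thus lay near those of genes at large. Irf9, the DNA-binding part of the factor ISGF3, gave 3.93, 4.10 and 3.95 with GFP, 5.51, 5.74 and 5.47 with AML1/ETO, and 3.66, 4.29, 3.98 and 3.91 with W692A. Its rise with AML1/ETO was 2.99-fold (1.58 ± 0.15, limma adjusted p = 1.17e-06). Stat2, its partner in ISGF3, rose at least 1.30-fold. Irf7, the amplifier of the interferon response, was at least 2.33-fold lower with W692A than with AML1/ETO (limma adjusted p = 1.43e-06). Rfx5 and Nfyb, subunits of factors that bind class I and class II promoters, fell 1.76-fold and 1.66-fold with AML1/ETO (limma adjusted p = 0.00015 and 0.00434), and with the Gapdh covariate 3 of the 17 regulators fell in place of 5.

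Nlrc5, the transactivator that drives class I heavy chain, B2m, Tap1 and Psmb9 promoters, gave 5.97, 5.28 and 5.34 with GFP, 5.61, 5.93 and 5.93 with AML1/ETO, and 4.69, 4.67, 5.03 and 4.78 with W692A. It was not called with AML1/ETO against GFP (0.29 ± 0.176, limma adjusted p = 0.271). With W692A it fell 1.67-fold from GFP (-0.74 ± 0.164, limma adjusted p = 0.00658) and was 2.05-fold lower than with AML1/ETO (-1.03 ± 0.164, limma adjusted p = 0.000328), with no overlap. With the Gapdh covariate its call against GFP ended (-0.77, limma adjusted p = 0.237), and that was the 1 alternative of 23 to end it. On the same arrays B2m and Tap1 differed from GFP by 0.03 and -0.16, neither called. A link between Nlrc5 and the level of these genes was not tested. Irf1, which is known to drive Psmb9 and Tap1 from their shared promoter and was named after its values were seen, fell 1.65-fold with AML1/ETO (-0.72 ± 0.112, limma adjusted p = 0.000134) and 1.41-fold with W692A (-0.49 ± 0.105, limma adjusted p = 0.00483). The W692A call of Irf1 also ended with the Gapdh covariate, though its difference stayed at -0.49 (limma adjusted p = 0.253). Under that covariate 0 of the 17 regulators were called between W692A and GFP, against 1 higher and 3 lower without it.

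Of 10 genes of interferon receptors, their kinases and their inhibitors, 3 rose and 1 fell with AML1/ETO. Of all genes above the bound 22.6% rose and 29.8% fell, so the share that rose lay near that of genes at large. Ifnar1, a chain of the type I interferon receptor, rose 1.88-fold (0.91 ± 0.186, limma adjusted p = 0.00147), and Ptpn2, a phosphatase that dampens the signal, rose 1.42-fold. Ifngr2, a chain of the interferon gamma receptor, fell 1.40-fold (-0.49, limma adjusted p = 0.0454), though GFP replicate 1, at 5.44, lay within the AML1/ETO range of 5.38 to 5.45. That call ended under 17 of 23 alternatives, among them the fit of every probe set and leaving out any 1 array except GFP replicate 1. With W692A Jak2, the kinase bound to that chain, fell 1.60-fold (limma adjusted p = 0.0047) and Socs3, a feedback inhibitor, rose 1.44-fold (limma adjusted p = 0.0249). The Socs3 call ended with the Gapdh covariate and without GFP replicate 1 or 3 or W692A replicate 2 or 4, while the Jak2 call held under all 23 alternatives.

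MHC class II genes make products that present peptides from outside the cell. Of 5 measured, 4 fell with AML1/ETO and 0 rose (also 4 and 0 at an unadjusted p under 0.05), with a median of -1.02. All 5 were above the bound, where 29.8% of genes fell with AML1/ETO. H2-Ab1 gave 7.17, 6.76 and 6.72 with GFP, 5.93, 5.94 and 5.61 with AML1/ETO, and 6.99, 5.91, 6.68 and 6.40 with W692A, and fell 2.08-fold with AML1/ETO (limma adjusted p = 0.00165). With W692A 0 of 5 were called (2, lower, at an unadjusted p under 0.05), with a median of -0.35.

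Cells of other types could carry these genes, and in bulk samples fewer cells of a type and less RNA per cell cannot be told apart. For the counts below, 22.6% of genes above the bound rose with AML1/ETO and 29.8% fell, against 12.9% and 15.8% of all genes. With W692A against GFP, 10.3% above the bound rose and 17.1% fell, against 5.45% and 9.07% of all genes. Between W692A and AML1/ETO, 18.9% above the bound were higher with W692A and 20.2% lower, against 9.61% and 11.1% of all genes. The mean level of 10 macrophage and monocyte markers was 3.33 to 3.52 on the GFP arrays, 3.99 to 4.18 with AML1/ETO and 3.87 to 4.04 with W692A. In that list 4 of 10 rose and 0 fell in each construct against GFP, while C1qa, C1qb, Ccr2 and Fcgr1 were under the bound in every group. The 8 dendritic cell markers averaged 2.82 to 3.27, 2.44 to 2.59 and 2.04 to 2.52, with 0 risen and 3 fallen with AML1/ETO, and Itgax, Zbtb46, Xcr1 and Siglech under the bound. The 9 stem and progenitor markers averaged 4.11 to 4.23, 5.74 to 5.82 and 5.07 to 5.31, with 7 risen and 1 fallen with AML1/ETO and 6 and 1 with W692A. The 10 neutrophil markers averaged 5.64 to 6.15, 4.90 to 5.75 and 5.10 to 5.56, with 1 risen and 6 fallen with each construct. Of T and NK, B cell, erythroid, and stromal and endothelial markers, 3 of 10, 1 of 6, 1 of 5 and 3 of 8 were above the bound in any group, and Cd3e, Cd79a, Pax5, Hba-a1, Col1a1 and Cdh5 were not. The stromal and endothelial list averaged 1.00 to 1.25 with GFP, 1.90 to 2.05 with AML1/ETO and 1.17 to 1.33 with W692A. Its AML1/ETO arrays thus stood above all others, as those of B2m and Tap1 did. That order was not particular to the stromal and endothelial list. The stem and progenitor list and the interferon reference genes had it too. In the stromal and endothelial list, calls went both ways. In it 4 of 8 rose and 1 fell with AML1/ETO, and 1 was higher and 4 were lower with W692A than with AML1/ETO. Its rises included the collagen gene Col1a2 and the matrix protein gene Sparc, at least 8.15-fold and 5.86-fold, named after their values were seen. Vwf was the 1 that fell, by -2.14 on the log2 scale (limma adjusted p = 2.66e-06). With the spike-in covariate 2 of the 8 rose with AML1/ETO and 2 were lower with W692A than with AML1/ETO. With AML1/ETO against GFP, 0 of the T and NK markers rose and 2 fell, and 0 of the erythroid markers rose and 2 fell. None of the 6 B cell markers was called by limma in that comparison (0 higher and 1 lower at an unadjusted p under 0.05). With the Gapdh covariate the neutrophil falls were 3 with AML1/ETO and 2 with W692A and the macrophage and monocyte rises with W692A were 2, and with the spike-in covariate 1 dendritic cell marker fell with AML1/ETO. The part of these markers in the values of B2m, Tap1, Tapbp and Psme1 was not tested.

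The 5 genes whose pattern over the 10 arrays was most like the mean of the 8 members, each centred on its own mean, were Kif3a (Pearson r = 0.945), Bnip5 (0.943), Slc6a8 (0.906), Zbp1 (0.906) and Neat1 (0.902). Kif3a is a kinesin motor subunit, Slc6a8 a creatine transporter, Zbp1 a sensor of nucleic acids and Neat1 a long noncoding RNA. They were taken from genes above the bound in a group whose group means span at least 1 log2 unit, as a description with no test. The member mean itself was -0.15, -0.30 and 0.02 with GFP, 0.35, 0.16 and 0.16 with AML1/ETO, and -0.02, 0.09, -0.16 and -0.13 with W692A. All 3 AML1/ETO arrays were above the 7 others on that mean. It includes B2m, Tap1 and Tapbp, which rose with AML1/ETO against GFP, and 5 members that were not called in that comparison.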

How the data were processed

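RNA of sorted cells was hybridised to 10 Affymetrix mouse arrays, 1 per sample. The authors deposited log2 intensities per probe set, computed with RMA per the submitters' processing notes; no version is given. RMA gives all arrays 1 distribution, which hides differences in total RNA. The base of the logarithm is not stated. Base 2 was used because the highest value, 12.77, read as a natural logarithm gives 350219, more than a 16-bit scanner's limit of 65535. Of 45101 probe sets, 64 were controls, 34945 had 1 gene, 932 several and 9160 none listed. Symbols of 34741 were updated by gene identifier. The number of arrays limits the precision.

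One limma fit (3.58.1, R 4.3.3; lmFit, eBayes, 7 residual and 7.53 prior degrees of freedom) of all 18193 genes in 3 groups gave differences ± SE, with Benjamini-Hochberg adjusted p over all genes and a threshold of 0.05; it was tested on simulated data. A fold against a dimmer group under the bound of 2.04 is a lower limit with values set to the bound. Ratios within arrays were tested by exact permutation. Promoter sequences are RefSeq's (GRCm38.p6). Alternatives were other probe set rules, filters on dim genes, normalizations, variance priors, array weights, a replicate block, covariates, a 1.5-fold minimum, fits of 2 groups and leaving out each array. Named list genes were the 2 largest rises and falls among called genes of a list per comparison, the constitutive catalytic subunits, and genes of lists with 3 or fewer above the bound; exceptions are marked. The members and lists were chosen with earlier results of these data known.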

Additional observations from a re-analysis of the deposited data

Results flagged for a closer look

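B2m on the third W692A array was 8.98, below the 9.34 to 9.40 of the other 3 arrays of its group. Its gap to the nearest array exceeded 0.829 of the group's range, which marked it as lying apart. The W692A group, the only one of 4 arrays, was examined for 9 probe sets and this was the 1 value so marked; chance marks about 1 in 20 groups. Without that array B2m was still called lower with W692A than with AML1/ETO.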

How the results depend on the processing

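Each of the 24 member differences was recomputed under 23 alternatives, 10 of which left out 1 array, except that the filter on genes above the background bound left out Tap2, which had 22. Of 549 values, 497 kept their direction and side of the threshold, 24 lost a call and 28 changed sign, all of the latter for differences that were not called. The rises of B2m and Tapbp with AML1/ETO held under all alternatives (0.73 to 0.94 and 0.75 to 1.44), as did the lower B2m with W692A than with AML1/ETO (-0.91 to -0.74). Tap1 lost both calls only with the mean of its probe sets. The W692A against GFP count of called members was 0 in place of 1 with further quantile normalization, the replicate block, the Gapdh covariate and the 1.5-fold minimum, and 0 to 1 on leaving out arrays, the loss being Psme1. Over all genes that comparison had 506 calls with the Gapdh covariate and 1637 at 1.5-fold, against 2642.

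Signs turned between AML1/ETO and GFP for Psmb8 (0.02, spike-in covariate), Psmb9 (-0.02, Gapdh) and Psmb10 (-0.13, Gapdh). Between W692A and GFP they turned for Psmb9 (-0.14, Gapdh), Psmb10 (-0.15, Gapdh) and B2m (-0.03, Gapdh; -0.01, spike-in). Between W692A and AML1/ETO they turned for Psmb9 (0.02, quantile; 0.06, median subtraction; 0.03, replicate block), Psmb10 (-0.02, Gapdh) and Tap2 (0.03 with quantile and with median subtraction). On leaving out arrays, signs turned for Psmb8 (-0.13 to 0.03), Psmb9 (-0.01 to 0.22) and Psmb10 (-0.04 to 0.21) in the first comparison, B2m (-0.01 to 0.13) in the second, and Psmb9 (-0.12 to 0.13) and Tap2 (-0.20 to 0.14) in the third. The cause was not tested.

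With the replicate number as a block, Psme1 (-0.49, limma adjusted p = 0.0512) and Tapbp against AML1/ETO (-0.74, limma adjusted p = 0.0576) lost their calls. Same-numbered arrays correlated at -0.127 to 0.457 about the group means, and arrays of different numbers at -0.397 to 0.325. The pairs of replicate 1 gave 0.293, 0.264 and 0.457, the last being the highest of all pairs. The sources used here do not say what a replicate number shares, and the main fit did not use it. A batch shared by the replicate 1 arrays was not tested. Median subtraction moved the median of all genes from 0.03 to 0.10 between W692A and AML1/ETO. Signal near the background bound limits Tap2.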
